A study of Mus musculus with 6 samples.

Results

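The insulin-like growth factor (IGF) family was followed in the lateral septum (LS) of mice after prolonged olanzapine. Its 10 genes, Igf1, Igf2, Igf1r and Igfbp1 to Igfbp7, were taken by symbol out of the 35415 genes in the deposited files, and all 10 passed the filter on low counts that 17255 genes passed. The rule goes by symbol, but the family was selected on earlier results of the same comparison, among them the counts of Igfbp1 in the 2 groups. The values of the members are therefore a description, and the adjusted p values given for them only state where they fell in the fit over all genes. Both groups were wild-type female C57BL/6 mice, bought at about 8 weeks of age and given 1 week to settle. The olanzapine group ate feed with olanzapine, an atypical antipsychotic that causes weight gain, at 50 mg per kg for 12 weeks, and the control group ate maintenance feed. Every library was made from the micro-dissected LS of 3 pooled mice, with n = 3 such pools in each group, so that variation from mouse to mouse was not measured.

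IGF-I and IGF-II are small secreted peptides that resemble insulin and promote growth and survival of cells. Both act through the IGF-I receptor, a tyrosine kinase encoded by Igf1r, and IGF-II is also taken up and degraded through the receptor encoded by Igf2r. The binding proteins IGFBP-1 to IGFBP-6 hold the peptides with high affinity in blood and tissue fluid and control how much of them reaches the receptor, whereas IGFBP-7 binds them weakly. In the adult body most circulating IGF-I and IGFBP-1 come from the liver. In the adult brain Igf2 is expressed mainly in the choroid plexus, the leptomeninges and vessels, and the choroid plexus also makes IGFBP-2.

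The libraries held 38208153 to 39868872 counts on genes. The 7 markers used for LS neurons summed to between 1492 and 2326 CPM (counts scaled to the library size), but most of that sum came from Gad1, Gad2 and Slc32a1, which inhibitory neurons of other regions also express. Of the narrower markers Trpc4 had between 41.6 and 87.1 CPM and Zic4 between 28.2 and 54.5 CPM, so both were counted in all 6 libraries. Markers of other tissues differed between the pools. The 6 striatal neuron markers summed to between 809 and 1713 CPM, with overlap between the groups. The 10 choroid plexus markers, led by Ttr, summed to between 69.6 and 7586 CPM, with overlap between the groups. The 4 markers of cortical glutamatergic neurons summed to 836 CPM in olanzapine pool 1 and to between 26.4 and 87.1 CPM in the other 5 pools. The 14 hepatocyte markers summed to between 12.4 and 23.6 CPM in the control pools and to between 263 and 324 CPM in the olanzapine pools. These marker sums are set beside the values of the IGF genes. In such bulk samples fewer cells of a type and less RNA per cell cannot be told apart.

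Igfbp1, Igf2 and Igfbp2, the genes whose nearest profiles were also looked up, are shown with the 250 bases before their RefSeq start sites in build GRCm38.p6. All 10 members matched this table, with 14 start sites in all, 4 of them for Igf2 and 2 for Igfbp2, and gene counts do not tell which start site of these genes was used. Igfbp1, the member that separated the groups most, lies on the plus strand at chr11:7197782-7202546, and its window is chr11:7197537-7197786. The window of Igf2, on the minus strand, is chr7:142657497-142657746 and belongs to the most downstream of its start sites. The window of Igfbp2, on the plus strand, is chr1:72824230-72824479 and belongs to the first of its start sites. Capitals mark matches, on either strand, to 4 motifs that were chosen with these sequences in view: CAAAACA, the core of the insulin response element, GTTAAT, an inner part of the site of the liver factor HNF1, GGGCGG, the GC box, and TATAAA, the TATA box.
Igfbp1: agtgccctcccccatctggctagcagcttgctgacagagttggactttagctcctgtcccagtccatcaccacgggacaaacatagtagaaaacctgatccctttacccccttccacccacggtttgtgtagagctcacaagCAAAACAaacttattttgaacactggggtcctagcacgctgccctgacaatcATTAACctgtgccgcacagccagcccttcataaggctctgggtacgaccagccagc
Igf2: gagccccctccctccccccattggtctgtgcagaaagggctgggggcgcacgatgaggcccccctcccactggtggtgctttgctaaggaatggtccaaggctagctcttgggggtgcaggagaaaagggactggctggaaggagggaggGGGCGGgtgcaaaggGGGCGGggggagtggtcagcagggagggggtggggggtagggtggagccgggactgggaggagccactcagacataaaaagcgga
Igfbp2: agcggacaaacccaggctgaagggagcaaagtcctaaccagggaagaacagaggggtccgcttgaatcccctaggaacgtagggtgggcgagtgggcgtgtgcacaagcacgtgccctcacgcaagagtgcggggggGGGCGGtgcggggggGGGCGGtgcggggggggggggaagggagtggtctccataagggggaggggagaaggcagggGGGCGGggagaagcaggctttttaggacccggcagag
The Igfbp1 window held the insulin response element core, starting 108 bases before the start site, and the HNF1 letters as ATTAAC, starting 56 bases before it. The former was found in 5.56% and the latter in 6.43% of all 32851 promoter windows of the table. The Igf2 window held 2 GC boxes and the Igfbp2 window held 3, where 32.7% of all windows held at least 1 GC box. Of the windows of these genes not shown, the second of Igfbp2 held none of the 4 motifs, and of those of Igf2 1 held a GC box and the other two none of the 4 motifs. TATAAA was in none of these 3 windows and in 12.4% of all windows. Such matches describe the letters only, and they say nothing of whether a factor was bound.

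On the FPKM scale, which corrects for gene length and so allows genes to be set against each other, every binding protein gene except Igfbp1 lay above Igf1, the gene of the ligand IGF-I, in both groups. In the control pools the order ran from Igfbp2 with 35.2 ± 30.8 FPKM (SD, n = 3) over Igfbp5 with 34.9 ± 4.21, Igf2 with 23.8 ± 21.6, Igfbp7 with 11.9 ± 2.76 and Igfbp4 with 10.9 ± 2.37 to Igf1r with 5.97 ± 0.365, Igfbp6 with 3.94 ± 1.45, Igfbp3 with 2.68 ± 0.460 and Igf1 with 0.256 ± 0.0148. Igfbp1 was listed at 0 in every control pool. The neighbours from Igfbp2 down to Igfbp4 overlapped in their pool values, as did Igfbp6 and Igfbp3, so these parts of the order are not resolved. Igf1r lay below every pool of Igfbp4 and above every pool of Igfbp6, and Igf1 lay below every pool of Igfbp3. In the olanzapine pools Igfbp5, with 32.0 ± 1.96 FPKM (SD, n = 3), stood before Igfbp2, with 29.3 ± 23.5, and Igfbp1, with 0.484 ± 0.134, overlapped Igf1, with 0.402 ± 0.176.
The 7 binding protein genes summed to between 61.1 and 139 FPKM per pool. Igfbp5 held between 24.6% and 49.9% of that sum and Igfbp2 between 13.8% and 49.5%. The FPKM of Igf2 was between 10.5 and 173 times that of Igf1 in the same pool. Thus most of the ligand RNA measured in these dissections was that of Igf2, in amounts that differed widely from pool to pool.

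**Figure D1:**
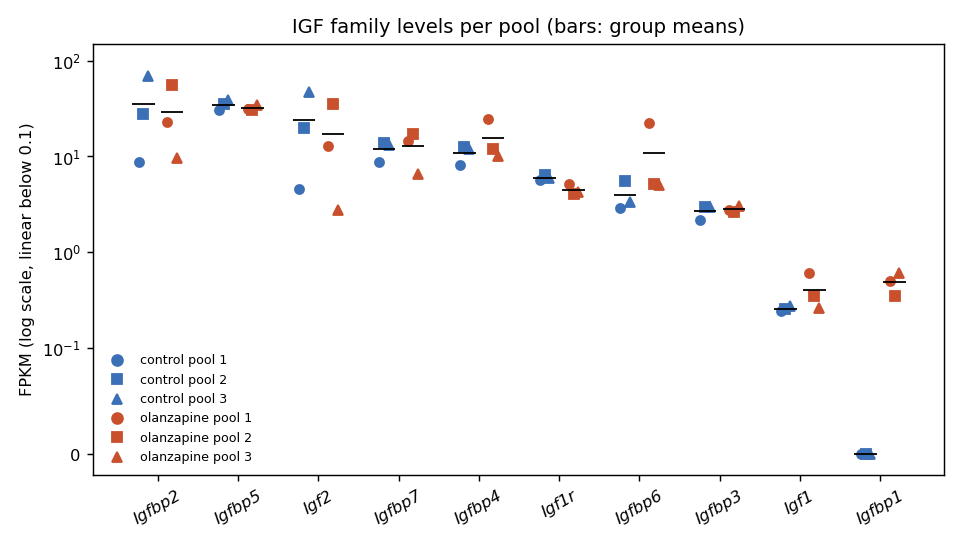
FPKM of the 10 IGF family genes in each pool, on an axis that is logarithmic above 0.1 and linear below; blue symbols are control pools, orange symbols olanzapine pools, and bars are group means. Igf2 and Igfbp2 have the widest spread within the control group, Igfbp5 stays between 30.3 and 38.9 FPKM, and Igfbp1 is listed at 0 in the control pools only.

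Genes were compared between the groups with edgeR's quasi-likelihood test, and a gene was called at an adjusted p under 0.05 together with a log2 fold change beyond 1 in size, the limits used by the study. Of the 10 members, 1 was called higher and 0 lower in the olanzapine pools, where 1.01% of all tested genes passed. Over the members the median log2 fold change was 0.06, and it was 0.00390 over all tested genes. At an unadjusted p under 0.05 there were 3 members, Igfbp1, Igf1r and Igfbp6, where 17.6% of all genes passed. The pools of the groups did not overlap for 2 members, Igfbp1 above and Igf1r below, where 24.3% of all genes did not overlap, 13.3% with olanzapine above and 11% with olanzapine below. Because the family was picked with this comparison known, nothing is read from these shares.

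Igf1, the gene of the ligand IGF-I (chr10:87858265-87937042), had 82.9, 85.9 and 91.2 normalized counts across control pools 1 to 3 and 204, 112 and 87.5 across olanzapine pools 1 to 3. Only olanzapine pool 1 stood well apart, and olanzapine pool 3 lay between the control pools. The log2 fold change was 0.63 ± 0.32 (SE), and it was 0.20 without olanzapine pool 1. Igf1 was not called in any setting tried, with adjusted p between 0.252 and 0.728 over the 18 alternatives (edgeR, DESeq2 and limma). The control pools of Igf1 differed by 4.84% (coefficient of variation), the smallest such value among the members.

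Igf2, the gene of the ligand IGF-II, was the most variable member. It had 1033, 4420 and 10498 normalized counts across control pools 1 to 3, and 2909, 7696 and 612 across olanzapine pools 1 to 3. The highest control pool exceeded the lowest 10.2-fold, and in the olanzapine group the range was 12.6-fold. Within the groups the SD of its log2 CPM was 1.77, larger than in 99.6% of the tested genes. The group means, 5317 ± 4796 (SD, n = 3) and 3739 ± 3614 (SD, n = 3), differed by less than either SD, with a log2 fold change of -0.51 and a standard error of 0.93. Leaving out 1 pool moved this value between -1.60, without olanzapine pool 2, and 0.47, without control pool 3, so the pools do not give a direction for Igf2. In GENCODE the gene lies at chr7:142650766-142666816 (GRCm38) and overlaps the antisense gene Igf2os, which had between 1 and 16 counts per pool, and a longer readthrough gene, Gm49394, which is not a row of the count file. The strand setting of the counting is not given in the sources used here, so reads of these overlapping genes cannot be told apart with certainty.

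Igfbp2, which encodes the main binding protein of cerebrospinal fluid, followed Igf2. It had 593, 1897 and 4640 normalized counts across control pools 1 to 3, and 1578, 3588 and 640.4 across olanzapine pools 1 to 3. The order of the pools was that of Igf2 except that the lowest places, held by control pool 1 and olanzapine pool 3, were exchanged. Its within-group SD of log2 CPM was 1.37, larger than in 99.0% of the tested genes. The log2 fold change was -0.30 ± 0.75 (SE), and over the fits without 1 pool it ran from -1.10 to 0.65.
The sum of the choroid plexus markers ran in the same order of pools as Igf2, as did each marker except Clic6 and Otx2, in which control pool 1 lay above olanzapine pool 1. Ttr, the transthyretin gene and the most abundant of them, had 35.7, 2406 and 6841 CPM across control pools 1 to 3 and 1024, 4225 and 20.8 CPM across olanzapine pools 1 to 3. All 10 of the markers were highest in control pool 3, none of them was called between the groups, and their sum was 107, 2741 and 7586 CPM across control pools 1 to 3 and 1178, 4782 and 69.6 CPM across olanzapine pools 1 to 3. The scale differed between the genes. From the lowest to the highest pool Ttr differed 329-fold and Kl, the klotho gene, 65.8-fold, whereas Igf2 differed 17.1-fold and Igfbp2 7.82-fold. In the pools with the lowest choroid plexus marker sums, control pool 1 and olanzapine pool 3, Igf2 and Igfbp2 were still counted at 612 or more and 593 or more normalized counts. The FPKM of Igfbp2 was 1.42 to 1.90 times that of Igf2 in 5 pools and 3.46 times in olanzapine pool 3, the pool with the lowest choroid plexus sum.
Meningeal fibroblasts are a further known source of both genes. Their 11 markers summed to between 27.6 and 68.8 CPM, a 2.49-fold range. The sum too was lowest in control pool 1 and olanzapine pool 3, but it was highest in olanzapine pool 1, unlike Igf2 and Igfbp2. Not every marker was lowest in those pools, as Col1a1 had 3.73 CPM in control pool 1 and 2.73 CPM in olanzapine pool 2. With the log2 of the choroid plexus sum as a covariate in the fit, an alternative chosen after seeing the data, the log2 fold change between the groups was -0.14 ± 0.15 (SE) for Igf2 and 0.16 ± 0.19 (SE) for Igfbp2. The standard errors were thus smaller than without the covariate, and neither gene was called (adjusted p of 0.678 and 0.714, edgeR's quasi-likelihood test). The part of meningeal RNA in these values was not tested.

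**Figure D2:**
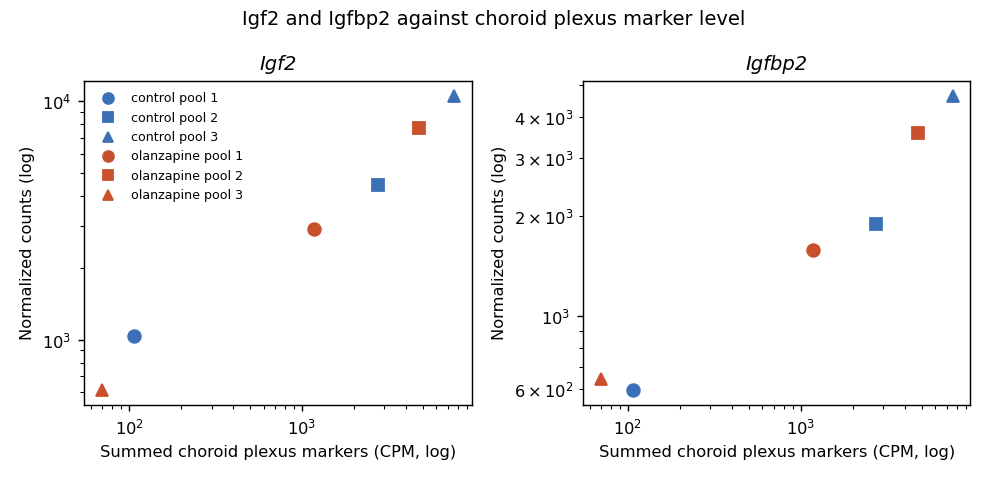
Normalized counts of Igf2 (left) and Igfbp2 (right) in each pool against the summed CPM of the 10 choroid plexus markers, all axes logarithmic; blue symbols are control pools and orange symbols olanzapine pools. Igf2 climbs with the marker sum in every step from 69.6 to 7586 CPM and Igfbp2 in every step but the lowest, and pools of both groups lie along the way.

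By the measure of likeness used here, the root mean square difference between centred log2 CPM profiles over the 6 pools, the genes closest to Igf2 were Pcolce (0.0863), Slc13a4 (0.182), Rbm47 (0.202), Dsp (0.261) and Ace (0.264). Pcolce encodes an enhancer of procollagen processing, and Ace encodes angiotensin-converting enzyme. Those closest to Igfbp2 were Clic3 (0.0926), A2m (0.197), Lepr (0.209), Nid2 (0.227) and Tns4 (0.230), among which Lepr encodes the leptin receptor. Clic3 and Tns4 had no more than 37 counts in any pool. Igfbp2 itself was 29th in the list for Igf2, and Prlr, the prolactin receptor gene, was 97th. Of the choroid plexus markers Ttr was far from Igf2 by this measure, at 1.86, because the measure includes the size of the change.

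Igf1r, the gene of the IGF-I receptor (chr7:67952827-68233668), was lower in every olanzapine pool than in any control pool. It had 2906, 3235 and 3015 normalized counts across control pools 1 to 3 and 2659, 2004 and 2125 across olanzapine pools 1 to 3. The group means were 3052 ± 168 (SD, n = 3) and 2263 ± 348 (SD, n = 3), and the log2 fold change was -0.43 ± 0.11 (SE). It was not called, at an adjusted p of 0.0995 (edgeR's quasi-likelihood test). The value stayed negative in all alternatives, from -0.56 without olanzapine pool 1, where the adjusted p was 0.00940, to -0.35, and DESeq2 gave an adjusted p of 0.0149. In none of these did it pass the limit on the fold change.
The other receptor genes of the system are given beside it. Igf2r, the mannose 6-phosphate receptor that clears IGF-II, had 1791 ± 97.0 normalized counts (SD, n = 3) with control feed and 1423 ± 23.6 (SD, n = 3) with olanzapine feed, without overlap, a log2 fold change of -0.33 ± 0.07 (SE) (adjusted p = 0.0569, edgeR's quasi-likelihood test). DESeq2 gave Igf2r an adjusted p of 0.0129 at a log2 fold change of -0.34, short of the limit on the fold change. Insr, the insulin receptor gene, had 2465 ± 289 (SD, n = 3) and 1994 ± 149 (SD, n = 3), also without overlap, a log2 fold change of -0.31 (adjusted p = 0.170). The rare relative Insrr, with 33.4 ± 7.68 and 61.2 ± 22.7 normalized counts (SD, n = 3 each), was higher in every olanzapine pool than in any control pool and differed by 0.87 in log2 (adjusted p = 0.274, edgeR), or by 0.54 without olanzapine pool 2. None of the 3 was called. Markers of endothelium, 1 of the cell types that carry Igf1r, summed to between 134 and 162 CPM in the control pools and to 157, 90.9 and 83.9 CPM across olanzapine pools 1 to 3, and septal neuron markers to between 1798 and 2326 CPM and between 1492 and 1999 CPM. Their part in the receptor values was not tested.

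Igfbp1 encodes a binding protein that the liver secretes in fasting and that insulin suppresses. It had 0 counts in each of the 3 control pools and 29, 20 and 36 counts across olanzapine pools 1 to 3. A count of 0 in a library of this depth still allows up to 3 counts, and against that floor per library the olanzapine mean of 28.6 ± 8.29 normalized counts (SD, n = 3) was at least 9.61-fold higher. Its adjusted p in the fit over all genes was 0.0207 (edgeR's quasi-likelihood test), which made it the called member. The groups did not overlap, but the call rested on few counts, and the gene passed the filter on low counts only through the olanzapine pools. It was lost in 5 of the 6 fits that left out 1 pool, with adjusted p from 0.0512 without control pool 3 to 0.0889 without olanzapine pool 3, and it was kept without olanzapine pool 1 at 0.0299.
Igfbp1 and the genes of hepatocytes were both higher in the olanzapine pools, a step between the groups on which Igfbp1 had been selected. All 14 hepatocyte markers were called higher in the olanzapine pools, where 0.95% of all tested genes were. Their median log2 fold change was 4.06, and none of them was at 0 in a control pool. The list was chosen with earlier results of these data known, so nothing is read from this count. Alb, the albumin gene, had 11.8, 12.8 and 6.80 CPM across control pools 1 to 3 and 133, 168 and 138 CPM across olanzapine pools 1 to 3. With the prior count of 2, which sets the size of the change of a gene at 0 in the control pools and so the distances and ranks, the profiles closest to Igfbp1 were those of Hnf4a (root mean square difference 0.275), Serpina1a (0.298), Hpx (0.332), Akr1c6 (0.339) and Itih1 (0.353). Since Igfbp1 was selected on its step between the groups, genes with a like step come near it by this measure. The list is therefore a description only. Hnf4a encodes a nuclear receptor that controls hepatocyte genes, with 1 count in every control pool and 32, 34 and 35 counts across olanzapine pools 1 to 3. Serpina1a encodes an antitrypsin of blood plasma, and Hpx encodes the plasma protein hemopexin. Igfals, which encodes the acid-labile subunit that hepatocytes add to the circulating IGF complex, had at most 1 count in a control pool and 5, 6 and 2 counts across olanzapine pools 1 to 3, and it did not pass the filter. Igfbp1 was highest in olanzapine pool 3 and lowest in pool 2, whereas the hepatocyte sum was highest in pool 2, at 324 CPM, against 266 CPM in pool 3. The part of liver RNA in the Igfbp1 counts was not tested.

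**Figure D3:**
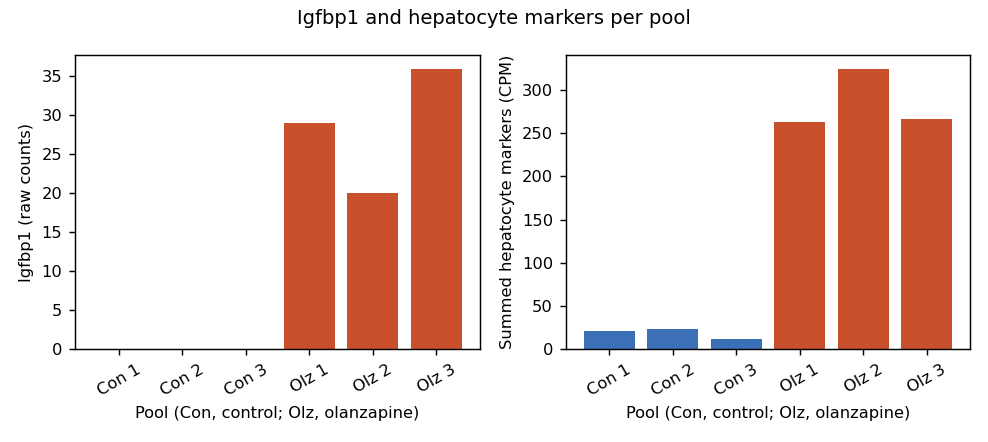
Raw counts of Igfbp1 (left) and summed CPM of the 14 hepatocyte markers (right) in each pool; blue bars are control pools and orange bars olanzapine pools. Igfbp1 is at 0 in the control pools and at 20 to 36 counts in the olanzapine pools, while the marker sum goes from at most 23.6 CPM to at least 263 CPM.

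Igfbp3 encodes the main carrier of IGF-I in blood and is the nearest neighbour of Igfbp1 in the genome, 3539 bases away at chr11:7206086-7213923. It did not share the pattern of Igfbp1. It had 345, 467 and 462 normalized counts across control pools 1 to 3 and 441, 399 and 475 across olanzapine pools 1 to 3, with overlap, and a log2 fold change of 0.05 ± 0.15 (SE). Igfbp2 and Igfbp5 form a second such pair, 5457 bases apart on chromosome 1. Igfbp5, the gene of the most conserved of the binding proteins, was the steadiest of the abundant members and did not share the spread of Igfbp2. It had 7109, 8133 and 8887 normalized counts across control pools 1 to 3 and 7333, 6693 and 7791 across olanzapine pools 1 to 3. Its log2 fold change was -0.15 ± 0.10 (SE), from -0.23 without control pool 1 to -0.06 without control pool 3, and the coefficient of variation was 11.1% in the control and 7.58% in the olanzapine group.

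Igfbp4 and Igfbp6 shared with Igf1 a peak in olanzapine pool 1. Igfbp4, whose product is cut by the protease PAPP-A to release IGF, had 1056, 1590.4 and 1525 normalized counts across control pools 1 to 3 and 3185, 1475 and 1283 across olanzapine pools 1 to 3. Igfbp6, whose product prefers IGF-II, had 150, 283 and 167 across control pools 1 to 3 and 1138, 251 and 253 across olanzapine pools 1 to 3. In both genes olanzapine pools 2 and 3 lay within the range of the control pools. The log2 fold change was 0.51 ± 0.33 (SE) for Igfbp4, and it was -0.01 without olanzapine pool 1. For Igfbp6 it was 1.45 ± 0.60 (SE), the largest among the members after Igfbp1, with an adjusted p of 0.259 (edgeR's quasi-likelihood test), and it was 0.33 without olanzapine pool 1. In FPKM, Igfbp6 made up 18.6% of all binding protein RNA in olanzapine pool 1 and 2.37% to 7.30% in the other pools.
All 4 cortical glutamatergic markers were highest in olanzapine pool 1 too, and Slc17a7, the vesicular glutamate transporter of cortical neurons, had 659 CPM against 10.7 to 55.1 CPM in the other pools. The pool was also highest in 6 of 11 meningeal markers and 6 of 8 markers of mural cells, the contractile cells of vessels, with sums of 68.8 against at most 67.4 CPM for the meninges and 184 against at most 161 CPM for mural cells. The 6 markers of microglia, a known source of Igf1, summed to 282 CPM in that pool and to 292 to 327 CPM in the others, although not every marker was lowest there. The part of cortical RNA in Igf1, Igfbp4 and Igfbp6 was not tested beyond leaving the pool out.

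**Figure D4:**
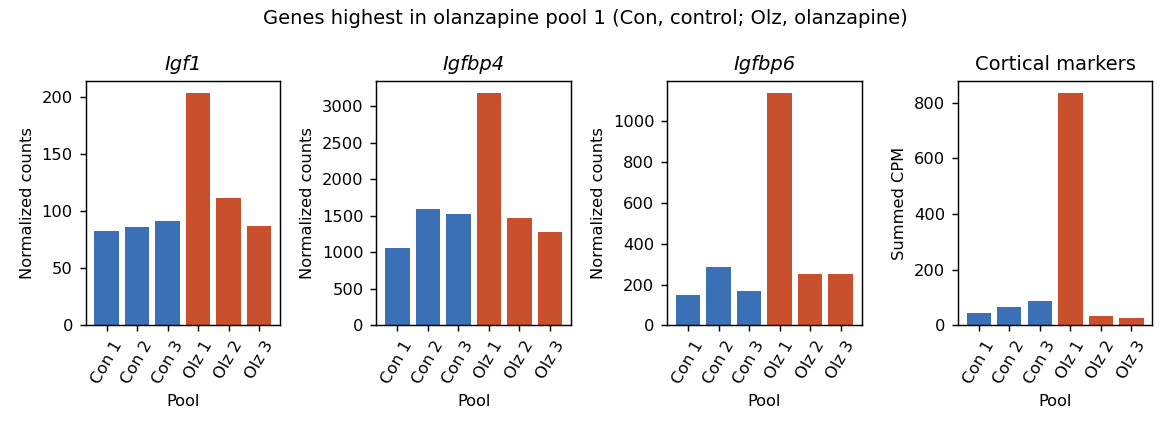
Normalized counts of Igf1, Igfbp4 and Igfbp6 and the summed CPM of 4 cortical glutamatergic neuron markers in each pool; blue bars are control pools and orange bars olanzapine pools. In all 4 panels olanzapine pool 1 is the highest bar, at 204, 3185 and 1138 normalized counts and 836 CPM.

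Igfbp7, a gene of vessel walls whose product binds IGFs weakly, had 422, 658 and 622 normalized counts across control pools 1 to 3 and 701, 792 and 311 across olanzapine pools 1 to 3. The groups overlapped fully, and the log2 fold change was 0.08 ± 0.33 (SE). Control pool 1 and olanzapine pool 3 were the lowest, as in the choroid plexus and meningeal sums. The sums of vessel markers were also lowest in olanzapine pool 3 but otherwise ran differently. Endothelial markers summed to 162 CPM in control pool 1 and to 90.9 CPM in olanzapine pool 2, where Igfbp7 was highest. Mural cell markers summed to 151 and 116 CPM in these pools. The part of these cell types in the Igfbp7 counts was not tested. With the choroid plexus covariate its log2 fold change was 0.15 ± 0.17 (SE), and it was not called (adjusted p = 0.714, edgeR). Its end overlaps the gene Polr2b on the opposite strand in GENCODE, which had between 2768 and 3270 counts per pool.

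**Figure D5:**
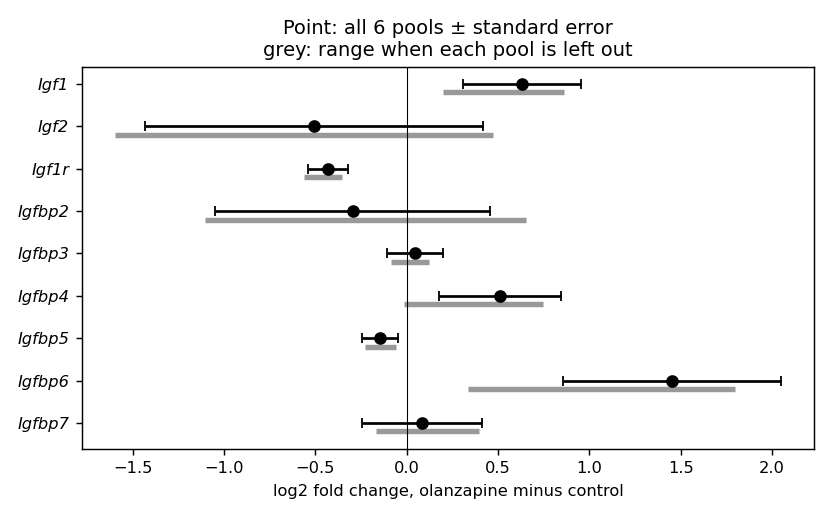
log2 fold changes (olanzapine minus control) of 9 members from edgeR with all 6 pools (points, with standard errors) and their range when each pool in turn was left out (grey). Igfbp1 is not drawn, since its control pools are at 0; Igf2 spans -1.60 to 0.47, Igf1r stays between -0.56 and -0.35, and Igfbp6 between 0.33 and 1.80.

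The wider IGF system was described with lists of 64 genes, of which 53 could be tested. None was called in either direction, where 0.95% of all tested genes passed as higher and 0.058% as lower. At an adjusted p under 0.05 with no limit on the fold change, 1 gene was lower and 0 were higher, where 2.32% of all tested genes passed, and 10 genes had an unadjusted p under 0.05, where 17.6% of all tested genes did. Their median log2 fold change was -0.06, with 31 negative and 22 positive values, where all tested genes had 8508 negative and 8747 positive values. The groups did not overlap for 11 genes lower and 3 higher, where 11% of all tested genes lay lower and 13.3% higher without overlap.
The 1 gene was Crim1, a transmembrane protein with an IGFBP domain that binds bone morphogenetic proteins. It had 5108, 4785 and 4837 normalized counts across control pools 1 to 3 and 3606, 3026 and 3465 across olanzapine pools 1 to 3, without overlap, a log2 fold change of -0.54 ± 0.08 (SE) (adjusted p = 0.0174, edgeR's quasi-likelihood test). The adjusted p was over 0.05 in 4 of the 6 fits that left out 1 pool, at most 0.0855. Of the 9 tested genes with an IGFBP domain, Ccn3 stood out by pool, with 1974 normalized counts in olanzapine pool 1 and between 107 and 487 elsewhere, and its log2 fold change of 1.33 turned to -1.29 without that pool. Ccn2 and Ccn4, relatives of Ccn3, were likewise highest in olanzapine pool 1, at 1054 and 108 normalized counts against at most 335 and 22.0 elsewhere, and none of the 3 was called. Igfbpl1, an IGFBP-like gene of immature neurons, had 762 ± 105 and 563 ± 208 normalized counts (SD, n = 3 each), a log2 fold change of -0.44 (adjusted p = 0.401, edgeR), which was -0.22 without olanzapine pool 1 and -0.76 without olanzapine pool 3.
Among the proteases that act on binding proteins and their inhibitors, 0 of 6 tested genes passed. Htra1, which encodes an abundant serine protease of astrocytes and cleaves IGFBPs, was at 87.5 FPKM in the control and 91.0 FPKM with olanzapine, a difference of 0.03 ± 0.10 (SE) in log2. Stc1 and Stc2, which encode stanniocalcins, had log2 fold changes of -0.31 and 0.15, and neither passed (adjusted p of 0.544 and 0.889, edgeR). Over the fits without 1 pool the value of Stc1 ran from -0.48 to -0.09, the latter without olanzapine pool 1. That of Stc2 ran from -0.35 to 0.46, so its sign changed.
In the growth hormone axis 0 of 8 tested genes passed. Jak2, the kinase of the growth hormone receptor, had a log2 fold change of 0.18, and Stat5b, its transcription factor, one of -0.26 with no overlap between the groups (adjusted p of 0.309 and 0.168, edgeR). Prlr had 1201, 1890 and 4155 normalized counts across control pools 1 to 3 and 1150.1, 3330 and 760.1 across olanzapine pools 1 to 3, which placed control pool 3 and olanzapine pool 2 on top as for Igf2. Of the genes tied to Igf2, H19, its imprinted neighbour, had at most 9 counts in a pool, Igf2bp3 at most 11, and Igf2bp2 had a log2 fold change of -0.44 with an adjusted p of 0.611 (edgeR), or -0.69 without olanzapine pool 1 and -0.27 without olanzapine pool 3.
In receptor signalling 0 of 26 genes passed. The median log2 fold change was -0.08, with 18 negative and 8 positive values, against 8508 and 8747 over all tested genes. The groups did not overlap for 6 genes lower and 2 higher, where 11% of all tested genes lay lower and 13.3% higher. The genes of highest FPKM were Akt1, the kinase downstream of both receptors, with 56.2 FPKM in the control and 56.3 FPKM in the olanzapine group, Grb2, an adaptor protein, with 51.6 and 52.8 FPKM, and Pik3r2, a regulatory subunit of PI3-kinase, with 31.1 and 35.8 FPKM. Their log2 fold changes were -0.02, 0.01 and 0.18, the last being 0.05 without olanzapine pool 1. Akt1 and Grb2 both changed sign in some of the fits without 1 pool. Akt1 also changed sign on the FPKM scale and Grb2 with the choroid plexus covariate, and neither differed by more than the spread between pools.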

How the data were processed

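Per the submitters' processing notes, the authors used fastp on the reads, HISAT2 for alignment and HTSeq for counts per gene. The notes name mm10 as the genome. Strand setting and tool versions are not given in the sources used here. The authors deposited raw counts and FPKM, the latter per length and mapped reads. Columns were matched to libraries by the labels, and 0 were left unused. The members and lists were chosen with earlier results of these data known.

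The reported fit used edgeR 4.0.16 (R 4.3.3) on the counts, TMM factors, filterByExpr (minimum count 10, minimum total 15), the group as the only term and the quasi-likelihood test. p values were adjusted by Benjamini-Hochberg over the 17255 tested genes. The standard error is the log2 fold change divided by the square root of F. Normalized counts are counts scaled to the mean effective library size. Profiles used log2 CPM with a prior count of 2. With 3 pools per group an exact permutation test cannot give a p under 0.1. Over genes with more than 20 counts in a pair of libraries, no pair held equal counts in more than 0.887%. Floors cover counting error only. The p values set the difference between the groups against the spread between pools, which is estimated with information shared over genes. The named genes were the 10 members, in each pathway list those with adjusted p under 0.05 and the 3 of highest FPKM, of the markers the 2 of highest FPKM in a list, and the 5 nearest profiles of Igfbp1, Igf2 and Igfbp2. Igfals, Kl, Otx2, Gad2, Trpc4, Zic4, Ccn2, Ccn4 and genes that overlap a member were named after their values were seen.

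Alternatives were DESeq2 1.42.0, RLE or upper-quartile factors, all genes with counts or only those averaging 50 counts, a block for the replicate number, limma 3.58.1 on log2(FPKM + 1) or log2(FPKM + 0.1) at a mean FPKM of at least 0.1, no FPKM filter, no limit on the fold change, and each pool left out. The script was tested on simulated data. Positions are from GENCODE M21 (GRCm38).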

Additional observations from a re-analysis of the deposited data

How the results depend on the processing

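Over all genes, 164 were called higher and 10 lower. DESeq2 called 267 and 37, limma on log2(FPKM + 1) 65 and 0, the same without a filter 60 and 0, and no limit on the fold change gave 316 and 85. Without 1 pool the counts ran from 85 to 158 higher and from 0 to 18 lower. The replicate numbers did not pair the pools (correlations of deviations -0.00262, 0.0617 and -0.255); with the replicate block 86 genes were called higher and 0 lower, Igfbp1 was not called (adjusted p = 0.101, edgeR), and the call of no other member changed. Without control pool 3 and olanzapine pool 2, chosen after seeing the data, 43 and 3 were called. Of the members, 1 was called higher in the fit of all pools and 0 with limma on log2(FPKM + 1), filtered or not (the adjusted p of Igfbp1 from limma was 0.0202 and 0.0302, but with FPKM values this low its change of 0.57 on that scale cannot reach the fold limit), at a mean of at least 50 counts, where Igfbp1 was not tested, with the replicate block, and without control pool 3 and olanzapine pool 2; without 1 pool the count was 0 to 1. Of the pathway genes, 1, Crim1, was called lower without the fold limit, against 0.

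Among members the sign changed for Igf2 without control pool 3 (range -1.60 to 0.47 over the fits without 1 pool), Igfbp2 (-1.10 to 0.65, and 0.16 with the choroid plexus covariate), Igfbp3 (-0.0855 to 0.12), Igfbp4 (-0.0130 to 0.74) and Igfbp7 (-0.17 to 0.40, and -0.0933 without control pool 3 and olanzapine pool 2). Igf1, Igf1r, Igfbp5 and Igfbp6 kept their direction in all alternatives run. The direction of Igfbp1 is fixed by its control pools at 0. Among pathway genes, again over the fits without 1 pool, it changed for Prlr (-1.34 to 0.19), Stc2 (-0.35 to 0.46), Ccn3 (-1.29 to 1.92, and -0.00390 with the replicate block), Htra1 (-0.0423 to 0.13), Grb2 (-0.0236 to 0.0569, and -0.00199 with the covariate) and Akt1 (-0.0495 to 0.01005, and 0.0024 and 0.00244 on the FPKM scales). The cause was not tested.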
